A study of Mus musculus with 8 samples.

Results

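The class I phosphoinositide 3-kinase (PI3K) genes of the mouse were measured in pancreatic ductal adenocarcinoma (PDAC) cells in which *Smad4* could be restored. They comprise 4 genes for catalytic subunits (*Pik3ca*, *Pik3cb*, *Pik3cd*, *Pik3cg*) and 5 for regulatory subunits (*Pik3r1*, *Pik3r2*, *Pik3r3*, *Pik3r5*, *Pik3r6*). These 9 genes, of 53465 in the count table, were chosen by gene symbol so that the whole family was taken and no member was left out for its values. The family itself was taken up with results of these data already known. The levels and tests below therefore describe each gene and are not independent support for a pattern. Of the 9 genes, 8 passed the filter on low counts that 14301 genes of the table passed, and *Pik3cg* did not.

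RNA-seq was performed on 8 libraries from B73 and B87, 2 cell lines that each came from the primary tumor of a mouse pancreas. The model carries *Ptf1a-Cre*, *Rosa26* *LSL-rtTA3-IRES-mKate2* and, at *Col1a1*, a GFP-linked short hairpin RNA against *Smad4* that doxycycline (Dox) switches on. Cells on continuous Dox (DoxOn) were Smad4 off. Cells kept 5 days without Dox (DoxOff) were Smad4 on. Each state was then treated for 24 h with 100 pM recombinant mouse TGFβ1 or with 2.5 µM SB505124, which blocks the kinase of the TGFβ type I receptor. The 4 groups each hold 1 library per line, so n = 2 and the replicates are 2 tumor lines. No group went without both agents, and *Smad4* restoration and the removal of Dox cannot be told apart in this design.

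A class I PI3K is a dimer of a catalytic subunit, named p110, and a regulatory subunit, and it makes the membrane lipid PIP3 from PIP2. PIP3 brings AKT kinases to the membrane, and lipid phosphatases remove it. The p110α, p110β and p110δ proteins pair with regulatory subunits of the p85 type, which join them to receptor tyrosine kinases, whereas p110γ pairs with p101 or p84 and answers to G protein-coupled receptors.

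*Smad4* itself followed the labels. It stood at 33.7 to 35.5 CPM (counts scaled to a common library total with TMM normalization) in the 4 Smad4-off libraries and at 97.3 to 117 CPM in the 4 Smad4-on libraries. Total counts ran from 18389235 to 23440550 per library, and 3 counts, taken as the smallest detectable level, corresponded to 0.125 to 0.162 CPM. This floor covers counting error only. Of 12 leukocyte markers, 1 (*Cd68*) exceeded 3 counts in every library. *Adgre1*, *Tyrobp* and *Cd3e* were at 0 and *Ptprc* at no more than 3 counts, and the summed leukocyte level was 1.68 to 7.03 CPM. Of 8 epithelial markers, 7 exceeded 3 counts in every library (1240 to 6247 CPM summed), and the exception, *Epcam*, had 3 to 39 counts. Of 6 fibroblast markers, 2 (*Pdgfra* and *Col1a1*) exceeded 3 counts throughout, with sums of 3.04 to 8.92 CPM in B73 and 31.1 to 631 CPM in B87. *Lum* was at 0, and *Dcn* and *Thy1* at no more than 3 counts. Of 5 endothelial markers, 1 (*Kdr*) exceeded 3 counts throughout (0.702 to 26.0 CPM summed).

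*Pik3r5*, which encodes p101, was the member whose level differed most between conditions. It lies on chromosome 11 (68432121 to 68497849, plus strand, GRCm38). The 246 bases just before its annotated start, chr11:68431875-68432120 on the plus strand, are shown because SMAD proteins bind DNA at the short box CAGAC. The box, in capitals, occurs once here. The sequence is from RefSeq on GRCm38.p6.

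*Pik3r5* upstream: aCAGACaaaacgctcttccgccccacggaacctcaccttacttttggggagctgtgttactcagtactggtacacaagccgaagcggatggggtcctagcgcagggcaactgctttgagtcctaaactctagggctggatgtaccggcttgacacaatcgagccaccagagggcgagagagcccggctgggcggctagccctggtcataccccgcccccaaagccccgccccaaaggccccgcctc

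CAGAC, or GTCTG on the other strand, was present in 42.2% of 32851 RefSeq windows of 250 bases upstream of a start, so a match is common. GGCGCC, a GC-rich SMAD motif that is its own reverse complement, was present in 9.59% of windows and not in this one. Of the 9 genes, 8 had an entry, 6 of them held CAGAC upstream of at least 1 start and 1 (*Pik3r3*) held GGCGCC. Because 4 of them had more than 1 start, these counts per gene cannot be set against the shares per window. No binding was measured, and a match is a description of the letters alone. *Pik3r6* had no entry.

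To place the subunits beside each other, levels were divided by the length of each gene's exons (CPM per kb). *Pik3r2*, which encodes the widely expressed adaptor p85β, was the highest at 22.5 ± 2.84 CPM per kb (SD over all 8 libraries). The order was then *Pik3cb* (p110β, 14.2 ± 3.45), *Pik3ca* (p110α, 10.9 ± 1.17), *Pik3r1* (p85α, 4.90 ± 1.06), *Pik3r5* (4.17 ± 3.29), *Pik3r3* (p55γ, 2.23 ± 0.66), *Pik3cd* (p110δ, 0.398 ± 0.162) and *Pik3r6* (p84, 0.151 ± 0.111). Most steps in this order held within libraries. *Pik3r2* exceeded *Pik3cb* in 7 of 8 libraries, the exception being Smad4-on B73 cells under TGFβ1, and *Pik3cb* exceeded *Pik3ca* and *Pik3ca* exceeded *Pik3r1* in 8 of 8. The order of *Pik3r1*, *Pik3r5* and *Pik3r3* did not hold throughout. *Pik3r5* was below *Pik3r1* in 6 of 8 libraries and above *Pik3r3* in 5 of 8. *Pik3r3* exceeded *Pik3cd*, and *Pik3cd* exceeded *Pik3r6*, in 8 of 8.

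**Figure D1:**
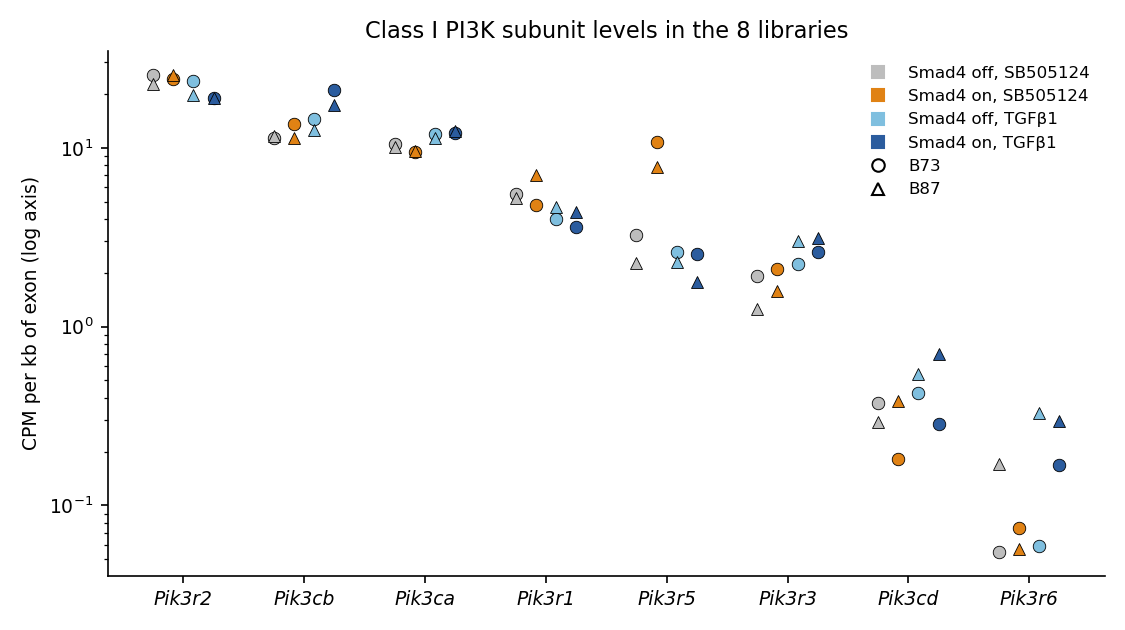
Levels of the 8 tested subunits in CPM per kb of exon (log axis), with 1 point per library, colour for the condition and shape for the line (circle B73, triangle B87). *Pik3r5* spans the widest range of the 6 more abundant genes, because both Smad4-on libraries under SB505124 sit at 7.82 to 10.8 CPM per kb, and *Pik3cg*, with 0 to 3 counts, is not drawn.

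*Pik3ca*, the catalytic subunit that RAS and receptor tyrosine kinases use most, varied little. Under SB505124 it stood at 95.0 (B73) and 91.4 CPM (B87) in Smad4-off cells and at 86.5 and 86.7 CPM in Smad4-on cells. Under TGFβ1 it stood at 108 and 103 CPM in Smad4-off cells and at 109 and 113 CPM in Smad4-on cells. The TGFβ1 libraries were thus higher than the SB505124 libraries in both states and both lines, without overlap. Differences were tested with edgeR's quasi-likelihood test on all 14301 genes, with the cell line in the model and Benjamini-Hochberg adjustment, and a gene passed at an adjusted p under 0.05. In Smad4-on cells *Pik3ca* was 1.28-fold higher under TGFβ1 (log2 fold change 0.36 ± 0.08 SE, adjusted p = 0.0114). It lost this call without either Smad4-on SB505124 library or without the B87 Smad4-on TGFβ1 library (adjusted p up to 0.0764). In Smad4-off cells the difference of 0.18 on the log2 scale did not pass (adjusted p = 0.162). *Gm37123*, which overlaps *Pik3ca* on the same strand, had at most 38 counts.

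*Pik3cb*, which encodes the p110β subunit that both receptor tyrosine kinases and G protein-coupled receptors engage, was highest in Smad4-on cells under TGFβ1. It measured 81.9 (B73) and 83.7 CPM (B87) in Smad4-off cells under SB505124 and 98.0 and 81.5 CPM in Smad4-on cells. Under TGFβ1 it measured 104 and 90.1 CPM in Smad4-off cells and 152 and 125 CPM in Smad4-on cells. Both of the last libraries lay above the other 6. With *Smad4* on, *Pik3cb* was 1.54-fold higher under TGFβ1 than under SB505124 (log2 0.62 ± 0.10, adjusted p = 0.00365). It passed in all 15 alternative fits, which do not include the 2-fold rule, and it does not meet that rule. Under TGFβ1, it was 1.42-fold higher with *Smad4* on than off (0.51 ± 0.10, adjusted p = 0.0295), by 0.55 in B73 and 0.47 in B87. This second call passed in 9 of 15 alternatives, and ended when any of the 4 TGFβ1 libraries was left out (adjusted p = 0.074 to 0.205) or when the line was not in the model (adjusted p = 0.231). Under SB505124 the *Smad4* difference was 0.11 ± 0.10 (adjusted p = 0.723), and the 2 *Smad4* differences did not differ past the threshold (0.40 ± 0.14, adjusted p = 0.351). Of the 75-base stretches of *Pik3cb* transcripts, 4.69% also occur in *Gm12978* or *Gm12992*, so a few of its reads may be shared.

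The leukocyte-enriched catalytic subunits were low. *Pik3cd* (p110δ) had 21 to 86 counts per library. It measured 2.34 and 1.84 CPM (Smad4 off, SB505124; B73 then B87), 1.13 and 2.41 CPM (Smad4 on, SB505124), 2.65 and 3.38 CPM (Smad4 off, TGFβ1), and 1.78 and 4.38 CPM (Smad4 on, TGFβ1). The lines differed in direction with *Smad4*, with lower levels in B73 and higher levels in B87 under both agents. The line-by-*Smad4* difference of 1.17 ± 0.40 had an unadjusted p of 0.0211 but an adjusted p of 0.373 in edgeR, so it did not pass. *Pik3cg* (p110γ) had 0 to 3 counts in every library and was not detectable above the floor in any condition. *Pik3r5* and *Pik3r6* encode its partners.

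Among the regulatory subunits, the p85-type genes *Pik3r1* and *Pik3r2* were lower under TGFβ1 than under SB505124 in Smad4-on cells. *Pik3r1*, whose product steadies and restrains p110 proteins, measured 55.7 and 52.8 CPM (Smad4 off, SB505124), 48.2 and 70.8 CPM (Smad4 on, SB505124), 40.2 and 46.9 CPM (Smad4 off, TGFβ1), and 36.5 and 44.3 CPM (Smad4 on, TGFβ1), with B73 first. The SB505124 libraries were all above the TGFβ1 libraries. In Smad4-on cells the fall was 1.46-fold (−0.55 ± 0.15, adjusted p = 0.0275). It was −0.34 and did not pass without the B87 Smad4-on SB505124 library (adjusted p = 0.191), and the call also ended without either Smad4-on TGFβ1 library (adjusted p up to 0.113) and without the line in the model (adjusted p = 0.119). In Smad4-off cells it was −0.33 ± 0.15 (adjusted p = 0.193). The counts do not separate the p85α, p55α and p50α products of *Pik3r1*.

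*Pik3r2* measured 107 and 95.3 CPM (Smad4 off, SB505124), 102 and 107 CPM (Smad4 on, SB505124), 98.5 and 82.8 CPM (Smad4 off, TGFβ1), and 79.6 and 79.0 CPM (Smad4 on, TGFβ1). The lowest libraries were those of Smad4-on cells under TGFβ1. It fell 1.32-fold with TGFβ1 in Smad4-on cells (−0.40 ± 0.10, adjusted p = 0.0209). The call ended without the B87 Smad4-on SB505124 library (−0.30) and without either Smad4-on TGFβ1 library (−0.35 without B73 and −0.45 without B87). Without the line in the model it ended in edgeR (adjusted p = 0.0644) but held in DESeq2 (adjusted p = 0.0360). In Smad4-off cells the value was −0.16 ± 0.10 (adjusted p = 0.338). *6330537M06Rik*, on the opposite strand of *Pik3r2*, had at most 27 counts.

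*Pik3r3*, which encodes the shorter adaptor p55γ, had higher values under TGFβ1 than did the same line and state under SB505124. It measured 10.2 and 6.67 CPM (Smad4 off, SB505124), 11.1 and 8.35 CPM (Smad4 on, SB505124), 11.9 and 16.0 CPM (Smad4 off, TGFβ1), and 13.9 and 16.5 CPM (Smad4 on, TGFβ1). Neither TGFβ1 difference passed, at 0.65 ± 0.27 in Smad4-on cells (adjusted p = 0.103) and 0.74 ± 0.27 in Smad4-off cells (adjusted p = 0.123). With no filter on low counts both passed (adjusted p = 0.0300 and 0.0211), and with only the 4 libraries compared the first did (adjusted p = 0.0388). They were larger in B87 (0.97 and 1.25) than in B73 (0.32 and 0.23), and that difference between the lines did not pass either (adjusted p = 0.534). Of the 75-base stretches of *Pik3r3* transcripts, 22.7% also occur in *Gm49337*, which leaves its count less certain.

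*Pik3r5* showed the largest change of the family. In Smad4-off cells under SB505124 it measured 18.0 CPM in B73 (361 counts) and 12.6 CPM in B87 (288 counts). In Smad4-on cells under SB505124 it measured 59.8 CPM (1107 counts) and 43.4 CPM (1044 counts). Under TGFβ1 it measured 14.6 and 12.7 CPM in Smad4-off cells and 14.2 and 9.83 CPM in Smad4-on cells. Both libraries of Smad4-on cells under SB505124 thus stood far above the other 6, which overlapped one another between conditions.

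Restoring *Smad4* under SB505124 went with a 3.37-fold rise of *Pik3r5* (log2 1.75 ± 0.12, adjusted p = 0.00316), by 1.73 in B73 and 1.77 in B87. Of all 14301 genes, it ranked 10 by p in this comparison. The call held in 14 of 15 alternatives, among them each of the 8 fits that left out a library. Without the line in the model it was lost in edgeR (adjusted p = 0.241) but held in DESeq2 (adjusted p = 5.26e-06). In Smad4-on cells, TGFβ1 went with a 4.30-fold fall (−2.11 ± 0.13, adjusted p = 0.000114), by −2.07 in B73 and −2.13 in B87, and this call held in 15 of 15 alternatives. These comparisons share the Smad4-on SB505124 libraries and are not independent of each other. Under TGFβ1 the *Smad4* difference was −0.20 ± 0.13 (adjusted p = 0.392). In Smad4-off cells the TGFβ1 difference was −0.15 ± 0.13 (adjusted p = 0.481).

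The difference between the *Smad4* effects under TGFβ1 and under SB505124 was itself tested. For *Pik3r5* it was −1.95 ± 0.18 (adjusted p = 0.0206), a test that 0.196% of all genes passed, by −1.76 in B73 and −2.14 in B87. It is the least firm of the *Pik3r5* calls. This call passed in 5 of 14 alternatives. It ended in the 8 fits that left out a library, any of the 8, although its size stayed at −1.82 to −2.11. Without the line in the model it ended in edgeR (adjusted p = 0.796) but held in DESeq2 (adjusted p = 0.00490). *Pik3r5* was also 1.34-fold lower in B87 than in B73 over the 4 conditions (−0.42 ± 0.09, adjusted p = 0.0174), a test that 18.6% of all genes passed and no other member did. This call passed in 6 of 12 alternatives and ended without any 1 library of the Smad4-off SB505124, Smad4-on SB505124 or Smad4-on TGFβ1 cells (adjusted p up to 0.0849). Without either Smad4-off SB505124 library, *Pik3cb* (−0.25) and *Pik3r1* (0.36) passed instead (adjusted p up to 0.0454 and 0.0477). With no filter on low counts *Pik3r6* also passed (1.24, adjusted p = 0.0468). The responses of *Pik3r5* to *Smad4* and to TGFβ1 did not differ between the lines past the threshold (adjusted p = 0.867 and 0.875).

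**Figure D2:**
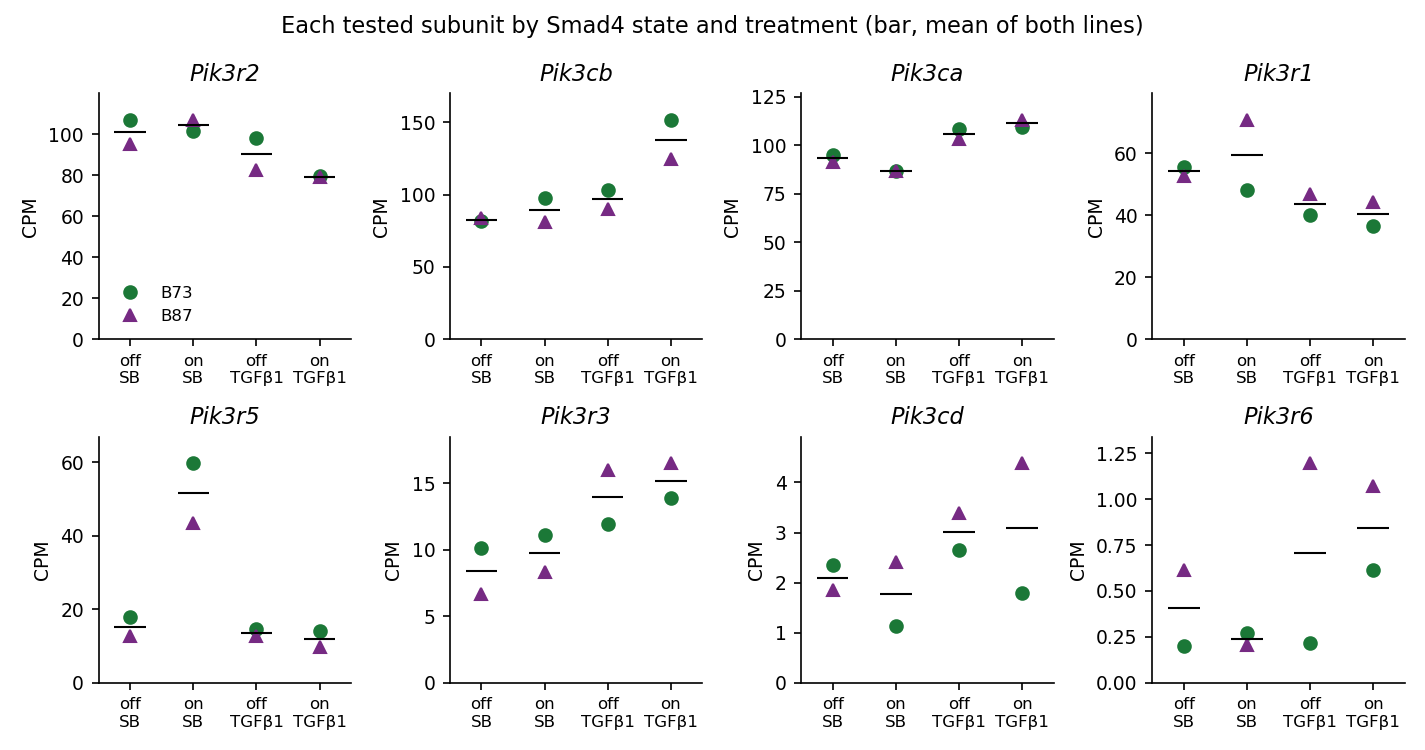
CPM of each tested subunit in the 4 conditions (Smad4 off or on, SB505124 or TGFβ1), with a point per line and a bar at the mean, each axis from 0. *Pik3r5* is high only in Smad4-on cells under SB505124 (59.8 and 43.4 CPM against 9.83 to 18.0 CPM), and *Pik3cb* is highest in Smad4-on cells under TGFβ1 (152 and 125 CPM).

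Under SB505124 the summed level of the leukocyte markers was 7.03 CPM (B73) and 2.63 CPM (B87) in Smad4-off cells and 3.94 and 2.74 CPM in Smad4-on cells, where *Pik3r5* rose in both lines. With TGFβ1 in Smad4-on cells, where *Pik3r5* fell, the leukocyte sum was lower in both lines, at 2.14 and 1.68 CPM. Of these markers, *Cd68* ran from 1.17 to 6.28 CPM over all libraries, and no other exceeded 0.399 CPM in any library. In Smad4-on cells the fibroblast sum of B73 was 3.72 CPM under SB505124 and 8.92 CPM under TGFβ1, and that of B87 was 125 and 631 CPM, mostly *Col1a1*. The part of either sum in the TGFβ1 differences was not tested. In bulk cells, fewer cells that express a gene and less RNA per cell cannot be told apart.

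*Pik3r6*, which encodes p84, the other partner of p110γ, begins 5170 bases beyond the end of *Pik3r5* on the same strand. It had 4 to 24 counts per library. It measured 0.199 and 0.615 CPM (Smad4 off, SB505124), 0.270 and 0.208 CPM (Smad4 on, SB505124), 0.214 and 1.19 CPM (Smad4 off, TGFβ1), and 0.612 and 1.07 CPM (Smad4 on, TGFβ1). It was not high where *Pik3r5* was high, and its TGFβ1 difference in Smad4-on cells, 1.84 ± 0.66, did not pass (adjusted p = 0.0722), but did with no filter on low counts (adjusted p = 0.0313) and with only the 4 libraries compared (adjusted p = 0.0316). Of the other genes within 200000 bases, the axon guidance gene *Ntn1* and the myosin gene *Myh10* were tested. *Ntn1* fell with TGFβ1 in Smad4-on cells (−1.24, adjusted p = 0.0382) and was at 0.36 (adjusted p = 0.742) with *Smad4* under SB505124. *Myh10* was at 0.22 and −0.33 in these comparisons (adjusted p = 0.623 and 0.736).

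The counts over the family were as follows. With *Smad4* restored under SB505124, 1 of 8 tested members rose and 0 fell, while 0.972% of all genes rose and 0.622% fell. With *Smad4* restored under TGFβ1, 1 rose (*Pik3cb*) and 0 fell, while 3.52% of all genes rose and 3.28% fell. With TGFβ1 in Smad4-on cells, 2 rose (*Pik3ca*, *Pik3cb*) and 3 fell (*Pik3r1*, *Pik3r2*, *Pik3r5*), while 15.6% of all genes rose and 17.6% fell. In Smad4-off cells none passed in edgeR, with 2 at an unadjusted p under 0.05 and also 0 passing in DESeq2 with the line, while 6.96% of all genes rose and 6.24% fell. The median log2 fold change of the 8 members was 0.08, 0.02, 0.49 and 0.20 in these comparisons, and that of all genes was 0.00, −0.01, −0.02 and −0.02. Under the study's rule, which also asks for more than a 2-fold change, 1 member (*Pik3r5*) was called with *Smad4* under SB505124 (1.09% of all genes) and with TGFβ1 in Smad4-on cells (13.9% of all genes). By that rule none was called with *Smad4* under TGFβ1 (3.12% of all genes) or with TGFβ1 in Smad4-off cells (5.93%).

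**Figure D3:**
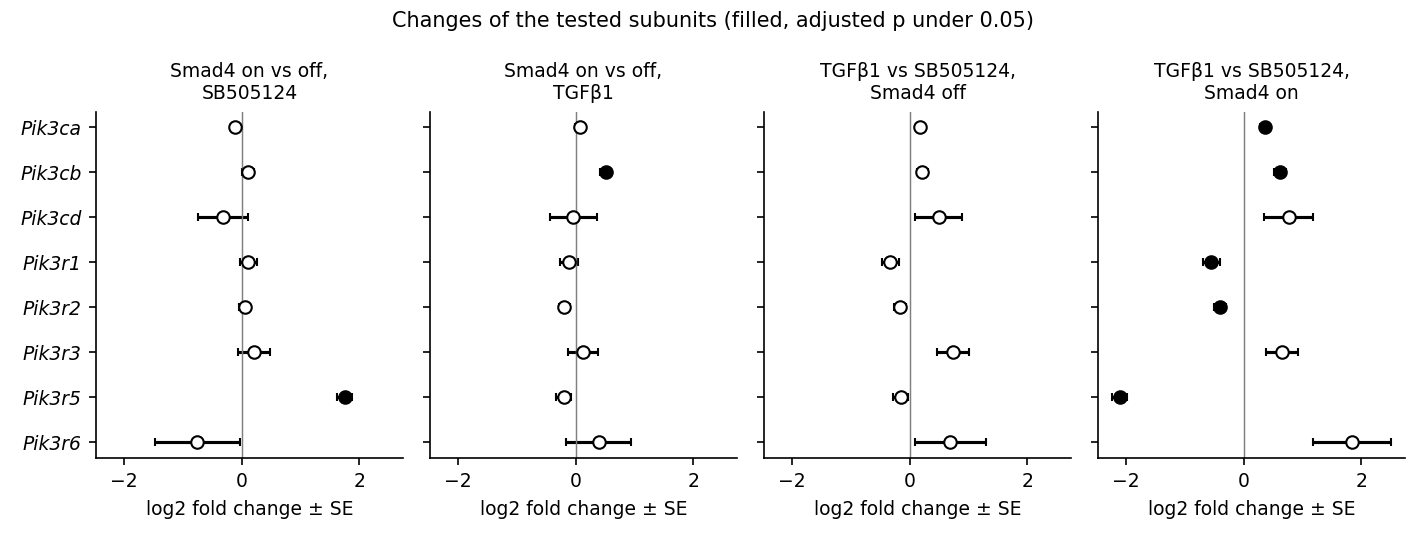
Log2 fold change with its standard error for the 8 tested subunits in the 4 comparisons, filled where the adjusted p was under 0.05. The point of *Pik3r5* lies at 1.75 with *Smad4* under SB505124 and at −2.11 with TGFβ1 in Smad4-on cells, and no point is filled for TGFβ1 in Smad4-off cells.

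Summed per length, the ratio of regulatory to catalytic transcripts differed between conditions, which is given as a description with no test. The regulatory sum includes *Pik3r5* and *Pik3r6*, whose products pair with p110γ, and *Pik3cg* was not detectable. The ratio is therefore one of transcripts and not a balance of subunits that pair. The catalytic sum was 22.1 ± 0.16 CPM per kb (SD, n = 2) in Smad4-off and 22.3 ± 1.47 in Smad4-on cells under SB505124, and 25.6 ± 1.63 and 31.9 ± 2.09 under TGFβ1. The regulatory sum was 34.1 ± 3.27 and 42.1 ± 0.0035 under SB505124 and 31.3 ± 1.69 and 28.3 ± 0.34 under TGFβ1. With TGFβ1 the catalytic sum was thus higher, and the regulatory sum lower, than with SB505124 in each state. The ratio of regulatory to catalytic transcripts in Smad4-off cells was 1.54 ± 0.14 with SB505124 and 1.22 ± 0.012 with TGFβ1. In Smad4-on cells it was 1.89 ± 0.12 and 0.887 ± 0.069. Smad4-on cells therefore held both the highest and the lowest ratio, and no library of any condition overlapped with those of another. The lead of both Smad4-on SB505124 libraries over all others rests on *Pik3r5*, although the B87 library stayed the highest without it. With *Pik3r5* left out of the regulatory sum, a choice made after seeing the data, the ratio under SB505124 was 1.34 (B73) and 1.61 (B87) in Smad4-on and 1.49 and 1.34 in Smad4-off cells, which overlap. Under TGFβ1 it was then 0.762 and 0.877 in Smad4-on and 1.117 and 1.138 in Smad4-off cells, and the former stayed the lowest.

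Within the catalytic pool, *Pik3cb* held 52.1% ± 1.16 in Smad4-off and 55.9% ± 3.64 in Smad4-on cells under SB505124, and 52.5% ± 1.83 and 60.0% ± 4.47 under TGFβ1. *Pik3ca* held nearly all the rest, and *Pik3cd* 0.776% to 2.30% in a library. Within the regulatory pool, *Pik3r2* held 71.2% ± 0.96 and 59.4% ± 2.10 under SB505124 and 69.2% ± 4.74 and 67.2% ± 1.13 under TGFβ1, in the same order. *Pik3r5* held 8.04% ± 1.23 in Smad4-off and 22.1% ± 4.95 in Smad4-on cells under SB505124, and 7.83% ± 0.34 and 7.67% ± 2.05 under TGFβ1. Its share in Smad4-on cells under SB505124 exceeded that of *Pik3r1*, at 14.0% ± 3.76. The *Pik3r5* to *Pik3r1* ratio there was 2.25 in B73 and 1.11 in B87, against 0.403 to 0.706 in the other 6 libraries. Per kb of each gene's longest transcript, the B87 ratio was 0.998, so that step rests on the length used.

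**Figure D4:**
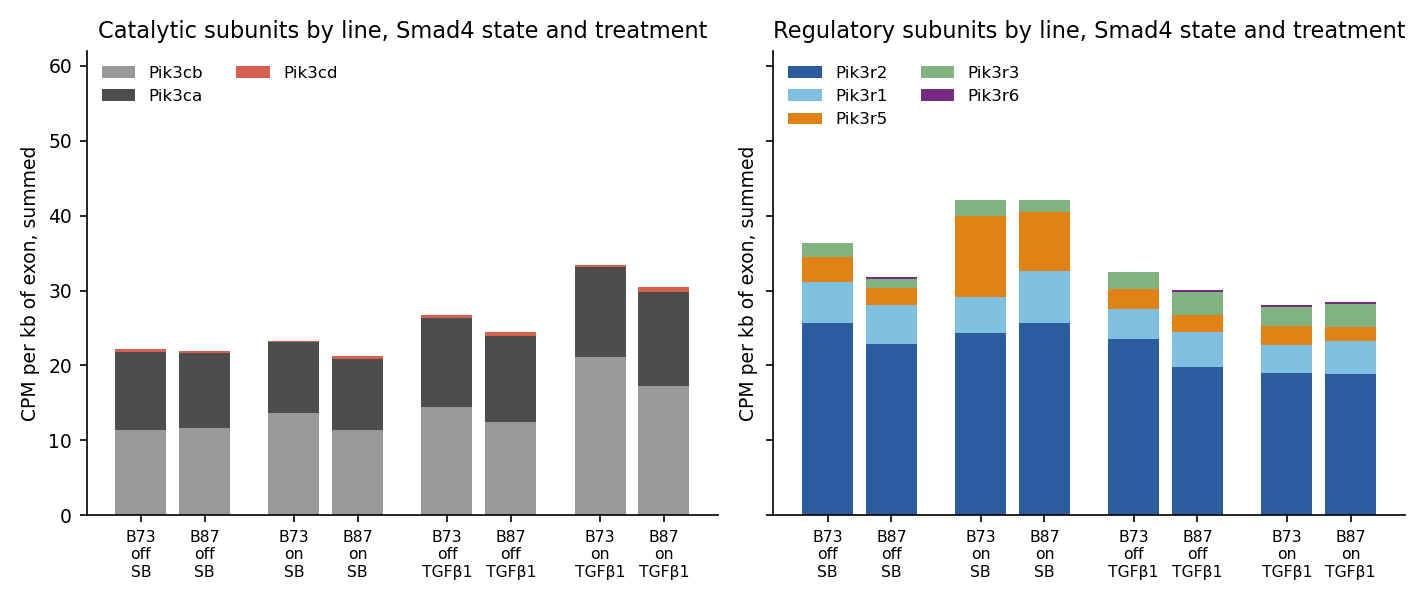
Catalytic (left) and regulatory (right) subunit levels stacked per library, in CPM per kb of exon, with the axes from 0. *Pik3r5* widens to 22.1% of the regulatory pool in Smad4-on cells under SB505124, and the catalytic sum is highest in Smad4-on cells under TGFβ1 (31.9 CPM per kb).

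The genes whose levels followed *Pik3r5* most closely over the 8 libraries, among genes with a mean log2 CPM of at least 1, were *Med12* (Pearson r = 0.981), a part of the Mediator complex, *Zdhhc7* (0.960), a palmitoyl transferase, and *Stim1* (0.957), a calcium sensor of the endoplasmic reticulum. These values are descriptions over libraries that share lines and conditions. The changes of these genes were far smaller than that of *Pik3r5*. *Med12* measured 109 and 104 CPM in Smad4-on cells under SB505124 and 84.0 to 93.3 CPM elsewhere, and *Stim1* 70.2 and 61.3 CPM against 42.4 to 48.2 CPM. With *Smad4* under SB505124 none of the 3 passed, at 0.23 (*Med12*, adjusted p = 0.272), 0.26 (*Zdhhc7*, adjusted p = 0.294) and 0.45 (*Stim1*, adjusted p = 0.0720). With TGFβ1 in Smad4-on cells all 3 fell, at −0.27 (adjusted p = 0.0340), −0.30 (adjusted p = 0.0425) and −0.50 (adjusted p = 0.00615). For *Pik3r6*, whose counts are few, the closest were *Krt10* (0.933), *Rngtt* (0.932) and *Ccdc58* (0.925).

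Around class I PI3K, a list of 55 pathway genes chosen by role was followed, of which 53 were tested (*Kit* and *Inpp5d* were not). With TGFβ1 in Smad4-on cells, 14 rose and 10 fell, or 45.3% of those tested, beside the 15.6% and 17.6% of all genes given above. With *Smad4* under TGFβ1, 4 rose and 3 fell (13.2%), beside 3.52% and 3.28% of all genes. With TGFβ1 in Smad4-off cells, 8 rose and 3 fell (20.8%), beside 6.96% and 6.24%. With *Smad4* under SB505124, where *Pik3r5* rose, 0 passed in edgeR, with 9 at an unadjusted p under 0.05 and 3 passing in DESeq2 with the line. The test of the difference between the *Smad4* effects also gave 0, with 12 at an unadjusted p under 0.05 and 2 in DESeq2 with the line.

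Among receptors that recruit PI3K, *Erbb3*, whose product docks p85 directly, fell most. Its mean was 17.8 CPM under SB505124 and 1.10 CPM under TGFβ1 in Smad4-on cells (−3.93 ± 0.28, adjusted p = 0.000191), and 13.6 and 3.46 CPM in Smad4-off cells (−1.95 ± 0.24, adjusted p = 0.00416). It was also lower with *Smad4* on than off under TGFβ1 (−1.72 ± 0.30, adjusted p = 0.0211). *Fgfr1* rose with TGFβ1 in both states (2.60 and 2.23), whereas *Egfr* rose in Smad4-on cells (1.24 ± 0.19, adjusted p = 0.00334) and stood at 0.59 in Smad4-off cells (adjusted p = 0.0872). The RAS gene *Rras* (1.09 and 0.71) and the docking protein gene *Gab2* (1.28 and 0.95) rose in both states. *Irs2*, an adaptor of the insulin receptor, fell in Smad4-on cells (−0.68 ± 0.15, adjusted p = 0.0129) and was at 0.05 in Smad4-off cells. *Irs1* was at −0.01 and 0.12 (adjusted p = 0.969 and 0.586).

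Of the other PI3K classes, *Pik3c2a* (class II) rose with TGFβ1 in Smad4-on cells (1.31 ± 0.10, adjusted p = 0.000235), and *Pik3c2b* fell (−1.72 ± 0.14, adjusted p = 0.000282). Both also changed in the same direction in Smad4-off cells (0.72 and −0.94) and with *Smad4* under TGFβ1 (0.58 and −0.71). *Pik3c2g* fell with TGFβ1 in both states, from 3.03 to 0.0765 CPM in Smad4-on cells, where 3 and 0 counts remained, and from 4.36 to 0.242 CPM in Smad4-off cells. Fold changes are not given for it, because the lower levels lie near the floor.

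Among the genes that act on or after PIP3, *Inpp4b*, a phosphatase of PI(3,4)P2, rose with TGFβ1 in Smad4-on cells (2.53 ± 0.40, adjusted p = 0.00363) from a mean of 6.16 to 29.8 CPM, and stood at 1.16 in Smad4-off cells (adjusted p = 0.117). *Sgk1*, a kinase related to AKT, rose in both states (1.54 and 1.05). *Sgk2* fell in Smad4-on cells from a mean of 3.13 to 0.178 CPM, where 7 and 0 counts remained. The level of *Sgk2* under SB505124 in these cells lay mostly in B73, at 5.56 CPM (103 counts), against 0.707 CPM (17 counts) in B87. *Akt1* (group means of 433 to 557 CPM) and *Akt2* (group means of 66.1 to 84.3 CPM) did not pass in any of the 4 comparisons. The FOXO gene *Foxo6* fell with TGFβ1 in Smad4-on cells (−1.95 ± 0.49, adjusted p = 0.0228), from a mean of 2.28 to 0.586 CPM. Its counts were few, with 18 (B73) and 5 (B87) left under TGFβ1. Under SB505124 it measured 3.19 CPM in B73 and 1.37 CPM in B87 in these cells.

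**Figure D5:**
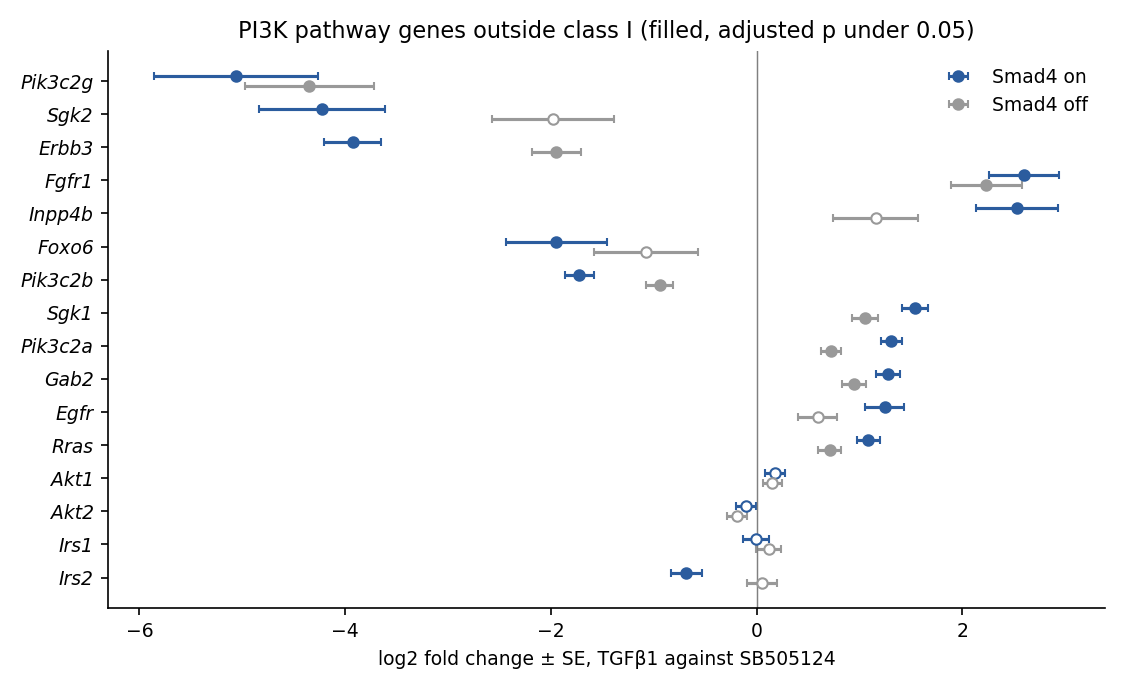
Log2 fold change with its standard error for TGFβ1 against SB505124 in 16 pathway genes outside class I, in Smad4-on (blue) and Smad4-off (grey) cells, filled where the adjusted p was under 0.05. *Erbb3* lies at −3.93 and *Fgfr1* at 2.60 in Smad4-on cells, and the values of *Pik3c2g* and *Sgk2* rest on 0 to 7 counts in the Smad4-on TGFβ1 libraries.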

How the data were processed

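Stranded poly(A) libraries of 8 cultures were sequenced by the authors as single-end reads of 75 bases. Per the labels, reads were trimmed with Trimmomatic 0.36, aligned to GRCm38 (mm10) with STAR 2.5.3a and counted with featureCounts 1.6.3, and the deposited table holds raw counts of 53465 genes, not pooled. The strand and multi-mapping settings are not given in the sources used here, so counts of overlapping or near-identical genes are less certain. The authors also deposited a length per gene (a value with no normalization), which equalled the summed exon length in GENCODE M21 for 95.6% of the genes found there and for every member.

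Groups and lines were taken from the sample titles and genotype labels. Counts were tested with edgeR 4.0.16 in R 4.3.3 (TMM, filterByExpr, quasi-likelihood F-test, terms for group and line, Benjamini-Hochberg over 14301 genes). Standard errors are the log2 fold change over the square root of F, and changes within a line use log2 CPM with a prior count of 2. The study's methods name DESeq2 and no covariate. The line was a block because each line went through all 4 conditions, and the titles pair the libraries. The differences between the lines correlated at r = 0.642 to 0.774 between groups (6 pairs). With the line in the model, a constant difference between the lines was taken out before the conditions were compared. The p-values of these comparisons therefore rest on how far the 2 lines, each 1 culture per condition, disagreed over all 4 conditions. They do not rest on the disagreement within 1 comparison alone, and the error of each gene was moderated toward that of the other genes.

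The members, the pathway list, the markers and the tests were chosen with earlier results of these data known. Some pathway genes and a further allele of the model are not reported here. Text names every member, *Smad4*, pathway genes that passed with more than a 2-fold change (at most 12 by size), *Akt1*, *Akt2*, *Irs1* and *Irs2*, and, for the 2 members that varied most, the 3 genes closest in pattern. Flanking genes and genes of overlapping transcripts were named by position or shared sequence. Alternatives were no replicate block, DESeq2 1.42.0 with and without the line, its size factors, no filter, at least 10 counts in every library, only the 4 libraries compared, leaving out each library, the 2-fold rule, each line alone, and the longest transcript for lengths. The scripts were tested on simulated data.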

Additional observations from a re-analysis of the deposited data

Results flagged for a closer look

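For *Pik3r5* the *Smad4* effect differed between the agents, with log2 fold changes of 1.75 under SB505124 and −0.20 under TGFβ1, of opposite sign in both lines. The value under TGFβ1 did not pass (edgeR, adjusted p = 0.392) and was −0.038 in B73 and −0.37 in B87. The difference itself was −1.95 ± 0.18 (edgeR, adjusted p = 0.0206), and no fit that left out a library kept it past the threshold.

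For *Pik3ca* the *Smad4* effect was −0.11 under SB505124 and 0.071 under TGFβ1, also of opposite sign in both lines. Neither value passed (adjusted p = 0.630 and 0.620), and neither did the difference of 0.18 ± 0.11 (adjusted p = 0.633).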

How the results depend on the processing

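With no replicate block, edgeR passed 0 members with *Smad4* under SB505124, 0 with *Smad4* under TGFβ1, 0 in the difference between them and 3 with TGFβ1 in Smad4-on cells. Of the pathway list, it then passed 0 with *Smad4* under TGFβ1, 11 with TGFβ1 in Smad4-on cells and 1 in Smad4-off cells. DESeq2 with no replicate block passed 0 members with *Smad4* under TGFβ1, and 3, 14 and 5 pathway genes in these comparisons. DESeq2 with the line passed 3 pathway genes with *Smad4* under SB505124 and 2 in the difference between the *Smad4* effects. With no filter on low counts, 1 member (*Pik3r3*, 0.75, adjusted p = 0.0211) passed with TGFβ1 in Smad4-off cells, 7 with TGFβ1 in Smad4-on cells (*Pik3r3* and *Pik3r6* added, as with only the 4 libraries compared), 2 members differed between the lines, and 4, 13 and 3 pathway genes passed with *Smad4* under SB505124, under TGFβ1 and in the difference between them. The 2-fold rule left 0 members with *Smad4* under TGFβ1, 1 with TGFβ1 in Smad4-on cells and 0 between the lines, and 1, 12, 4 and 9 pathway genes with *Smad4* under TGFβ1, TGFβ1 in Smad4-on cells, TGFβ1 in Smad4-off cells and between the lines. Shares of all genes are given above for the main fit and the 2-fold rule only. Under the other settings in this section, the counts cannot be set beside such a share and are not results about the members. The cause of the differences between settings was not tested.

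Leaving out each library gave 0 to 1 members with *Smad4* under TGFβ1, 2 to 5 with TGFβ1 in Smad4-on cells, 0 to 2 between the lines, and 0 to 0 in the difference between the *Smad4* effects, and 0 to 8 pathway genes with *Smad4* under TGFβ1 and 5 to 12 with TGFβ1 in Smad4-off cells. No member that passed changed sign in any alternative. Signs changed where nothing passed. *Pik3cd* was at 0.031 and 0.037 with *Smad4* under TGFβ1 with no replicate block in edgeR and DESeq2. Over the leave-one-out fits, values with *Smad4* under SB505124 ran from −0.032 to 0.26 (*Pik3cb*), −0.92 to 0.31 (*Pik3cd*), −0.098 to 0.33 (*Pik3r1*), −0.050 to 0.15 (*Pik3r2*), −0.11 to 0.59 (*Pik3r3*) and −1.53 to 0.39 (*Pik3r6*). With *Smad4* under TGFβ1 they ran from −0.58 to 0.38 (*Pik3cd*), −0.18 to 0.48 (*Pik3r3*) and −0.17 to 1.501 (*Pik3r6*). With TGFβ1 in Smad4-off cells they ran from −0.071 to 1.16 (*Pik3cd*), −0.29 to 0.0013 (*Pik3r5*) and −0.44 to 1.22 (*Pik3r6*). In the difference between the *Smad4* effects they ran from −0.39 to 0.84 (*Pik3cd*) and −0.47 to 0.26 (*Pik3r3*), and between the lines from −0.039 to 0.0070 (*Pik3ca*) and −0.25 to 0.099 (*Pik3r3*).

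The libraries number 2 per group, so a change must be large against the disagreement between the 2 lines over the conditions to pass. *Pik3cg*, *Pik3cd* and *Pik3r6* are limited by counts of no more than 3, 86 and 24 in a library.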
